A study of Homo sapiens with 4 samples.

Results

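Krüppel-like factors are transcription factors that bind GC-rich and CACCC sequences through carboxy-terminal zinc fingers, and the 10 members described here, KLF2, KLF3, KLF4, KLF5, KLF6, KLF7, KLF9, KLF10, KLF11 and KLF13, were taken by symbol from a table of 57820 genes. Expression was measured by RNA sequencing in 786-0, an established human renal carcinoma cell line. In shNT the cells carried a non-targeting short hairpin RNA, and in shGLUD1 a hairpin against GLUD1, the mitochondrial glutamate dehydrogenase. Both groups had been starved of amino acids for 12 h and held 2 libraries each, so the comparison is between hairpins in starved cells. Whether the libraries of a group came from separate cultures is not said in the labels, nor whether a hairpin line was 1 clone. The p-values thus cover only library-to-library spread, possibly technical.

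The family divides by the partners its proteins recruit. KLF2, KLF4, KLF5, KLF6 and KLF7 carry activation domains, KLF3 recruits the CtBP corepressors, and KLF9, KLF10, KLF11 and KLF13 recruit the SIN3A corepressor complex. Many are short-lived transcripts that respond to growth factors, hormones or stress. Family members compete with one another and with the related SP factors for the same DNA sites, so their relative amounts are part of how the family is described.

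Values are TPM (transcripts per 1000000), which are scaled by transcript length and so can be set side by side between genes, and means are given ± SD with n = 2 libraries. Changes are log2 fold changes of TPM + 1 in shGLUD1 minus shNT, tested with limma over the 12524 genes averaging 1 TPM or more, and a gene is said to have risen or fallen when its Benjamini-Hochberg adjusted p was under 0.05. The typical gene was not still: the median change over all genes tested was 0.63. Each change is therefore also given rescaled, after median-ratio scaling of the libraries, which sets the typical gene near no change. GLUD1 was at 18.1 and 17.4 TPM in shNT and at 13.5 and 19.8 TPM in shGLUD1, so the targeted transcript was not lower in 1 of the libraries labelled shGLUD1 (log2 fold change -0.11, limma adjusted p = 0.631; rescaled -0.83, adjusted p = 0.00233). Directions below follow the labels. Of the renal carcinoma markers, VIM (891 to 3756 TPM), CA9 (22.1 to 72.4 TPM), KRT8 (41.5 to 64.1 TPM), EPAS1 (8.86 to 26.1 TPM) and PAX8 (5.18 to 8.75 TPM) were present in every library, and PAX2 was at or near 0. VIM, CA9 and EPAS1 rose on both scales. PAX8 was lower in both shGLUD1 libraries, without passing on TPM (-0.38, limma adjusted p = 0.155), and was called lower rescaled (-1.05, adjusted p = 0.0014). NDUFA4L2 was at 2.29 to 2.86 TPM (lower rescaled), and KRT18 was low and fell on both scales, from 1.87 and 1.54 TPM in shNT to 0.66 and 0.82 TPM in shGLUD1 (-0.64, rescaled -1.03). Of markers of other cell types, PTPRC, CD3E, COL3A1, VWF and CDH5 reached at most 0.11 TPM, and CD14, HBB and HBA1 at most 1.24 TPM. CD68 (146 to 241 TPM), COL1A1 (1.63 to 5.19 TPM) and PDGFRB (1.14 to 3.53 TPM) were present and rose on TPM (none passed rescaled), and their part in the results was not tested.

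All 10 factors had higher TPM in both shGLUD1 libraries than in either shNT library, as did 69.9% of all genes tested. KLF9, at a mean of 0.583 TPM over the 4 libraries, was below the limit for testing. Of the 9 tested, 7 rose (77.8%, against 56.7% of all genes tested) and none fell (7.77% of all genes). Rescaled, KLF2, KLF6, KLF10 and KLF13, 4 of the 9, were higher (44.4%, against 23.2% of all genes) and none was lower (27.9% of all genes). With shNT replicate 1 left out, the share of members called higher was close to that of all genes on both scales. The rescaled values of 7 of the 10 members were still higher in both shGLUD1 libraries (39.0% of all genes), those of KLF4 were lower in both (39.2%), and those of KLF5 and KLF7 overlapped. The median change of the 9 was 0.92, beside 0.63 for all genes tested. Members differed widely in the size of the change: 95.5%, 93% and 86.9% of the genes tested had a smaller change than KLF6, KLF13 and KLF2, while KLF4, KLF5 and KLF11 lay below the median gene. In bulk RNA, more cells expressing a gene and more RNA per cell cannot be told apart. In shGLUD1 replicate 2 all 10 members were above replicate 1 (9 of 10 after rescaling). This library also had the largest scaling factor (log2 0.50, against 0.29 in replicate 1 and -0.38 and -0.37 in shNT). The median of the genes tested was likewise higher there, at 11.6 TPM against 9.82 TPM in replicate 1. The share of all genes in this order was not counted on either scale, so the order cannot be called particular to the members.

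**Figure D1:**
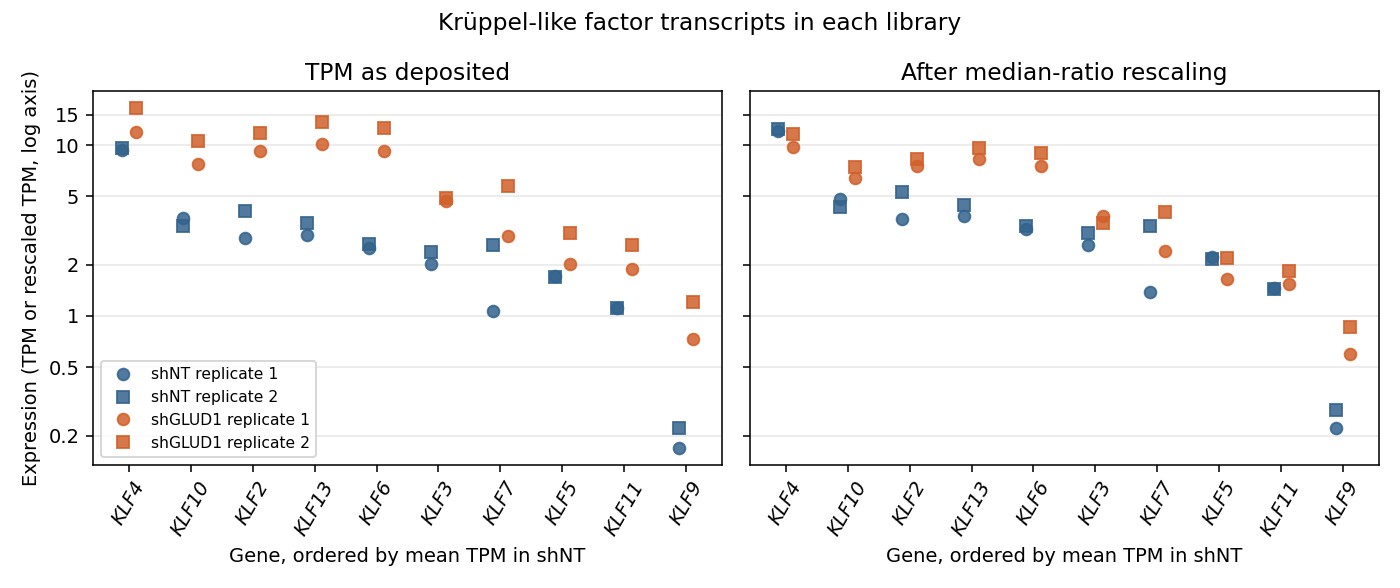
TPM of the 10 Krüppel-like factors in each library on a log axis, as deposited (left) and after median-ratio rescaling (right). Circles and squares are replicates 1 and 2, blue is shNT and orange is shGLUD1. On the left the groups are apart for all 10 genes, and on the right KLF4 is lower in shGLUD1, KLF5 and KLF7 overlap, and 7 genes stay higher.

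The 10 are separate protein-coding genes on 8 chromosomes; KLF4 and KLF9 share chromosome 9, and KLF7 and KLF11 chromosome 2. KLF4 was the most abundant member in all 4 libraries, and KLF9 the least. In shNT the mean TPM fell in the order KLF4 (9.52), KLF10 (3.56), KLF2 (3.47), KLF13 (3.23), KLF6 (2.56), KLF3 (2.20), KLF7 (1.83), KLF5 (1.70), KLF11 (1.12) and KLF9 (0.195). The ranges of KLF10, KLF2 and KLF13 overlapped, and the wide range of KLF7 overlapped those of KLF3, KLF5, KLF6 and KLF11. In shGLUD1 the order became KLF4 (14.1), KLF13 (11.9), KLF6 (10.9), KLF2 (10.4), KLF10 (9.16), KLF3 (4.82), KLF7 (4.34), KLF5 (2.54), KLF11 (2.24) and KLF9 (0.97). There the first 5 overlapped each neighbour in the order, although their ranks were the same in both shGLUD1 libraries. KLF13 moved from rank 3 to rank 2 and KLF6 from rank 5 to rank 3 in both libraries of each group.

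Among the activators, KLF6 changed most in the main test. KLF6, a widely expressed factor studied as a tumour suppressor and as a regulator of lipid metabolism in clear cell renal carcinoma, was at 2.49 and 2.62 TPM in shNT and at 9.26 and 12.6 TPM in shGLUD1. Both shGLUD1 values lay far above both controls, which differed from each other by little. Mean TPM was 4.28-fold higher, and KLF6 rose by 1.73 on the log2 scale (SE 0.23, limma adjusted p = 0.000111). Its rescaled value was 1.10 (SE 0.17, adjusted p = 0.00125), and both calls held with each library left out in turn (adjusted p at most 0.00542 on TPM and 0.0174 rescaled). KLF6 is ENSG00000067082 on GRCh38 chromosome 10, 3775996 to 3785281, minus strand; all coordinates here are of that build.

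KLF2, which holds endothelial cells and T cells in a quiescent state, was at 2.84 and 4.1 TPM in shNT and at 9.17 and 11.7 TPM in shGLUD1. The groups did not overlap, and the shNT libraries were further apart than for KLF6. Mean TPM was 3.01-fold higher (log2 fold change 1.36, SE 0.23, limma adjusted p = 0.000562). The rescaled value was 0.71 (SE 0.19, adjusted p = 0.0153), and this call was lost without shNT replicate 1 (0.49, adjusted p = 0.0917), without shGLUD1 replicate 1 (0.79, 0.0613) and without shGLUD1 replicate 2 (0.67, 0.0895). KLF2 has the most GC-rich transcript of the 10 (65.2% G and C), and with trends in transcript length and GC content removed its rescaled value was 1.16 (adjusted p = 0.00604). In that setting KLF2 was above KLF6 (0.81) and KLF13 (0.70). With the trends removed on TPM, KLF2 was at 1.76, KLF6 at 1.48 and KLF13 at 1.37. The order of these members thus depends on the setting. KLF2 is ENSG00000127528 on chromosome 19, 16324817 to 16327874, plus strand.

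KLF4, an epithelial differentiation factor and one of the pluripotency reprogramming factors, was at 9.36 and 9.67 TPM in shNT and at 11.9 and 16.4 TPM in shGLUD1. The shNT libraries were close and the shGLUD1 libraries spread, with the lower of them not far above the controls. KLF4 rose on TPM (log2 fold change 0.51, SE 0.20, limma adjusted p = 0.0403), with a change below that of the median gene. Its rescaled value was -0.19 (adjusted p = 0.305), so its direction depends on the scaling. The call on TPM was lost without shNT replicate 1 (adjusted p = 0.18), shNT replicate 2 (0.141) or shGLUD1 replicate 2 (0.175). KLF4 is ENSG00000136826 on chromosome 9, 107484852 to 107490482, minus strand.

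KLF5, a factor of proliferating epithelia, and KLF7, best known from neurons, were low. KLF5 was at 1.71 and 1.68 TPM in shNT and at 2.01 and 3.07 TPM in shGLUD1, a difference that did not pass the test (0.38, SE 0.26, limma adjusted p = 0.215; rescaled -0.14, adjusted p = 0.595). The shGLUD1 libraries differed from each other by more than the lower one differed from the controls. KLF7 was at 1.07 and 2.59 TPM in shNT and at 2.94 and 5.75 TPM in shGLUD1. It rose on TPM (0.92, SE 0.33, limma adjusted p = 0.0318), but shNT replicate 2 was close to shGLUD1 replicate 1, and the rescaled groups overlapped (0.37, adjusted p = 0.348). Without shNT replicate 1 the KLF7 change was 0.52 (adjusted p = 0.278) and without shGLUD1 replicate 2 it was 0.53 (0.276).

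The CtBP-recruiting member, KLF3, was at 2.01 and 2.38 TPM in shNT and at 4.72 and 4.92 TPM in shGLUD1, with close replicates in both groups. KLF3 rose on TPM (0.87, SE 0.23, limma adjusted p = 0.0074), and its rescaled value was 0.29 (adjusted p = 0.231). Without shNT replicate 1 the TPM call was lost (0.78, adjusted p = 0.0938). An antisense transcript that overlaps its exons, KLF3-AS1 (listed under the clone name RP11-617D20), was at 0.02 TPM in 1 library and at 0 in the others.

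Of the SIN3A-recruiting members, KLF13 changed most. KLF13, first described as an activator of the chemokine gene CCL5 in T cells, was at 2.98 and 3.48 TPM in shNT and at 10.2 and 13.6 TPM in shGLUD1. The lower shGLUD1 library was well above both controls. Mean TPM was 3.67-fold higher (log2 fold change 1.59, SE 0.22, limma adjusted p = 0.000157), and the rescaled value was 0.95 (SE 0.17, adjusted p = 0.00238). Like KLF6, it passed with each library left out, on both scales (adjusted p at most 0.0269). KLF13 is ENSG00000169926 on chromosome 15, 31326855 to 31435665, plus strand.

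KLF10, an early TGF-beta response gene also known as TIEG1, was at 3.74 and 3.38 TPM in shNT and at 7.78 and 10.5 TPM in shGLUD1. The groups were apart, and KLF10 rose 2.57-fold in mean TPM (log2 fold change 1.14, SE 0.23, limma adjusted p = 0.00133). The rescaled value passed by little (0.50, SE 0.17, adjusted p = 0.0407), and this call was lost with each of the 4 libraries left out in turn (adjusted p between 0.0655 and 0.17). With length and GC trends also removed the rescaled value was 0.29 (adjusted p = 0.139).

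KLF11, or TIEG2, the closest relative of KLF10, was at 1.12 and 1.11 TPM in shNT and at 1.88 and 2.6 TPM in shGLUD1, and did not pass the test (0.61, SE 0.25, limma adjusted p = 0.0534; rescaled 0.14, adjusted p = 0.597). Without shGLUD1 replicate 1 its TPM change was 0.77 and passed (adjusted p = 0.0291). An antisense gene whose exons overlap those of KLF11 (RP11-254F7) was at 1.34 and 1.35 TPM in shNT and at 0.45 and 2.17 TPM in shGLUD1. Whether the counting used strand is not given in the sources used here, so reads of KLF11 and this antisense gene may not be separable. KLF9, a glucocorticoid- and thyroid hormone-induced factor, was at 0.17 and 0.22 TPM in shNT and at 0.73 and 1.21 TPM in shGLUD1. The ratio of its means was 4.97, the highest of the 10, but at levels too low for the main test. With no filter on low values its log2 fold change was 0.71 (limma adjusted p = 0.049).

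**Figure D2:**
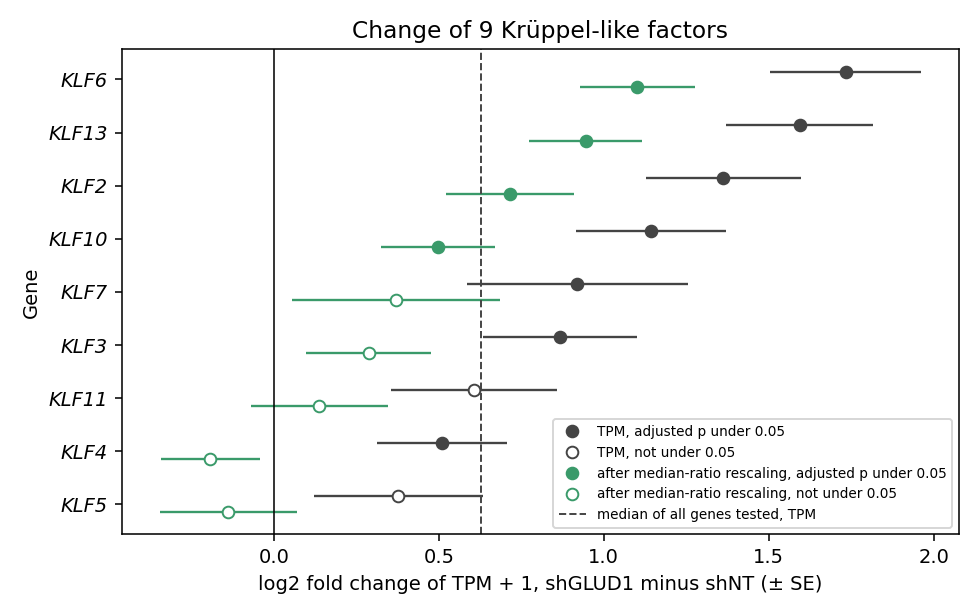
Log2 fold changes of TPM + 1 with their limma SE for the 9 tested factors, on TPM (grey) and after median-ratio rescaling (green). Filled points have an adjusted p under 0.05. The dashed line is the median of all genes tested, 0.63, and KLF4, KLF5 and KLF11 lie below it.

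Ratios between members within a library do not depend on how libraries are scaled. Relative to KLF4 in the same library, KLF6 was at 0.266 and 0.271 in shNT and at 0.778 and 0.77 in shGLUD1, a ratio 2.88 times higher with little spread in either group. KLF13 went from 0.339 ± 0.029 to 0.841 ± 0.019 of KLF4, KLF2 from 0.364 ± 0.085 to 0.744 ± 0.038, and KLF10 from 0.375 ± 0.035 to 0.649 ± 0.007. KLF5 was at 0.178 ± 0.0063 in shNT and 0.178 ± 0.013 in shGLUD1. Of the 9 ratios, 7 were higher in both shGLUD1 libraries than in either shNT library, and those of KLF5 and KLF7 overlapped. KLF4 changed less than the median gene, and 45.8% of all genes tested had a ratio to KLF4 that was higher in both shGLUD1 libraries. All 9 share the KLF4 value as denominator. The ratios are given as a description: an exact two-sided permutation of 2 against 2 libraries cannot give a p below 0.333, and no other test of them was run.

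The makeup of the sum of these 10 members can be read from the same values. Other family genes are outside this sum, among them KLF16, which was above KLF4 in each library, so the shares hold within the list only. Summed TPM of the 10 members was 27.5 and 31.2 in shNT and 60.6 and 82.3 in shGLUD1. KLF4 held 32.5% ± 2.2 of this sum in shNT and 19.8% ± 0.16 in shGLUD1. KLF6 held 8.72% ± 0.47 in shNT and 15.3% ± 0.0083 in shGLUD1, and KLF13 11.0% ± 0.21 in shNT and 16.6% ± 0.24 in shGLUD1. The shares of KLF3, KLF7 and KLF10 overlapped between groups.

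**Figure D3:**
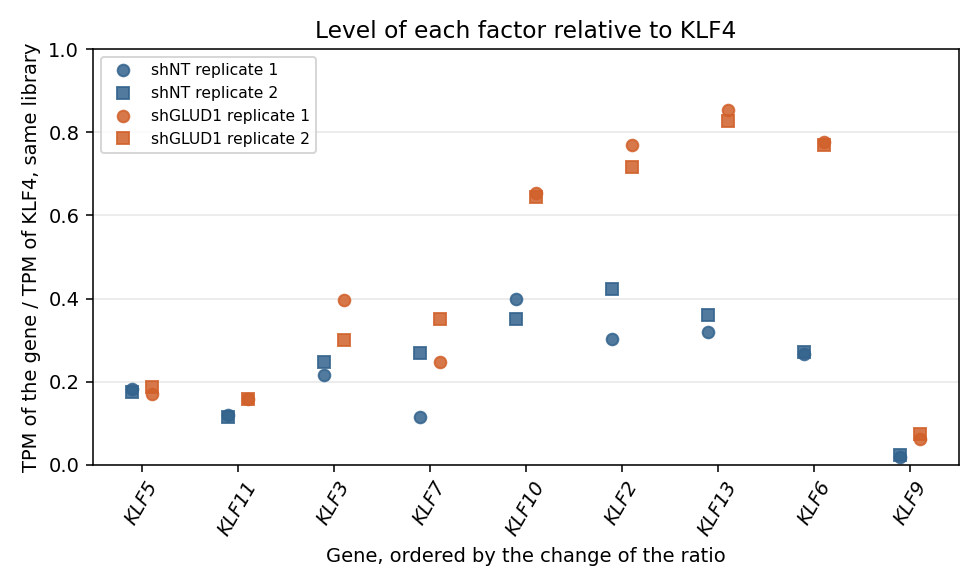
TPM of each factor divided by TPM of KLF4 in the same library, on a linear axis from 0. Circles and squares are replicates 1 and 2, blue is shNT and orange is shGLUD1. KLF6 sits at 0.266 and 0.271 in shNT and at 0.778 and 0.77 in shGLUD1, while KLF5 overlaps between the groups.

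Promoter sequence was read for the members that moved furthest and for KLF4, because many KLF genes carry the GC boxes that their own proteins and the SP factors bind. RefSeq windows of 300 bases, from 250 before to 50 after a start site (GRCh38.p14), covered 8 of the 10 members in 13 windows, with KLF3 and KLF10 not covered. Printed below 5′ to 3′ are the bases upstream of the start that lie outside the gene's GENCODE exons. Capitals mark GC boxes (GGGCGG, either strand), the E-box CACGTG and the MEF2 element.
KLF6, chr10:3785282-3785459, minus strand: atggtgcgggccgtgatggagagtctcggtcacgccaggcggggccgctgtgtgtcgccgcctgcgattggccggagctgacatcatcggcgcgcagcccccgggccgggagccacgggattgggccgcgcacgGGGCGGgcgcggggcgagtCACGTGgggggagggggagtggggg
KLF13, chr15:31326585-31326834, plus strand: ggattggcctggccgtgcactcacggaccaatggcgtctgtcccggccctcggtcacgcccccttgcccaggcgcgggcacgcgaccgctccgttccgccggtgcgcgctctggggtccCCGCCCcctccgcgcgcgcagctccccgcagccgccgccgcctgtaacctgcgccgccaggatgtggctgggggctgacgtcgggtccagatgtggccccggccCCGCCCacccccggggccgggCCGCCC
KLF2, chr19:16324576-16324816, plus strand: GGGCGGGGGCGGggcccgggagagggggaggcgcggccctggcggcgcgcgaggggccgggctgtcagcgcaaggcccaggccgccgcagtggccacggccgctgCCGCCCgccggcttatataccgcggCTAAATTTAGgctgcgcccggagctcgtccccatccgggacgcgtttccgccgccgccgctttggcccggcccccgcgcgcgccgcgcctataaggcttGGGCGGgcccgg
KLF4, chr9:107489770-107490019, minus strand: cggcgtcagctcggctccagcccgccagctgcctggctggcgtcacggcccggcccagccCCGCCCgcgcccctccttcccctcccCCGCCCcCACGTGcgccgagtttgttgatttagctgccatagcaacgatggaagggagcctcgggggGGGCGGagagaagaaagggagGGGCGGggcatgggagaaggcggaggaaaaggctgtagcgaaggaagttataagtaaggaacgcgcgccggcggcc

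The KLF6, KLF13, KLF2 and KLF4 stretches held 1, 3, 4 and 4 GC boxes. The stretches were not all of the same length, and the full windows of these genes held 2, 3, 6 and 4 GC boxes, in the same order. Whether the number of GC boxes is related to the changes was not tested. The KLF4 stretch lies within the annotated span of its gene, because GENCODE places another start further upstream. KLF7 has 4 of the windows and KLF5 and KLF11 have 2 each, so windows of a gene are not independent, and matches of different motifs may overlap. Over the full windows, 8 of 13 member windows held a GC box, against 45% of 35116 windows of all genes, and 7 held CACCC on either strand, against 59.9%. The E-box was in 4 member windows, 1 each of KLF4, KLF6, KLF7 and KLF11, against 7.26% of all windows. KLF2 alone of the covered members held a MEF2 element (2.99% of all windows), the site through which the ERK5 pathway is known to act on this gene, and it lies in the stretch printed above. A cyclic AMP response element, TGACGTCA, was in 1 window, of KLF11 (1.85% of all). No member window held the AP-1 site TGANTCA (7.71%) or the ATF4 site TGATGNAAT (0.991%), searched on both strands. These are matches of letters and do not show binding.

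Counts for the lists that follow are to be read against the 56.7% of all genes tested that rose on TPM and the 23.2% that were higher rescaled. Of 16 other KLF and SP genes 6 were tested, 4 rose on TPM with none falling (66.7%), and rescaled 2 were higher with none lower (33.3%), shares near those of all genes for a list this short. SP3, a ubiquitous factor that binds the same GC boxes, was at 1.52 and 1.61 TPM in shNT and at 7.44 and 13.8 TPM in shGLUD1 (2.13, limma adjusted p = 0.000114; rescaled 1.53). Its value was above that of every member tested, a difference that was not itself tested. SP1, its close relative, was at 1.05 and 1.29 TPM in shNT and at 3.56 and 5.15 TPM in shGLUD1 (1.29, rescaled 0.77), and both rescaled values passed. KLF16, which was above KLF4 in each library, was at 9.74 and 15.6 TPM in shNT and at 23.1 and 20.1 TPM in shGLUD1 (0.76, rescaled 0.04), and SP5 rose by 0.83 (rescaled 0.47, not passing). KLF1, KLF14, KLF15, KLF17, SP7, SP8 and SP9 were at or near 0 in all libraries.

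Genes of the corepressor and coactivator complexes that KLF proteins recruit were next. Of 15 tested, 11 rose (73.3%) while 1 fell, and after rescaling 7 were higher (46.7%) and 2 lower, with a list median of 1.02 beside 0.63 for all genes. SIN3A, the scaffold bound by KLF9, KLF10, KLF11 and KLF13, was at 0.9 and 1.03 TPM in shNT and at 6.38 and 6.11 TPM in shGLUD1 (1.88, limma adjusted p = 7.9e-05; rescaled 1.36). RBBP4, a histone-binding subunit of the same complex, rose by 1.84 (rescaled 1.13), and the deacetylase HDAC2 by 1.52 (rescaled 0.78). CTBP2, a corepressor bound by KLF3, rose by 1.68 (rescaled 1.00). The 1 that fell was the acetyltransferase KAT2A (-0.55, rescaled -1.25). The other gene lower after rescaling was HDAC3 (rescaled -0.53, limma adjusted p = 0.00746). The rescaled values of SIN3B and SAP30 were -0.23 and -0.14 and did not pass. All of these were named after their values were seen.

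Among 10 ubiquitin ligases and proteases reported to act on KLF proteins, 8 rose (80%) while none fell, and after rescaling 4 were higher (40%) and 1 lower. USP10, a deubiquitinase, was at 2.87 and 4.05 TPM in shNT and at 14.7 and 16.2 TPM in shGLUD1 (1.89, limma adjusted p = 4.5e-05; rescaled 1.23). WWP1, which ubiquitinates KLF5, rose by 1.47 (rescaled 0.95), BTRC by 1.24 (0.73) and SMURF2 by 1.23 (0.74).

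The pathways that lead to single members were read in the same way. In the MEK5-ERK5-MEF2 arm above KLF2 and KLF4, 4 of 6 tested genes rose with none falling (66.7%), and rescaled 2 were higher with none lower (33.3%), again near the shares of all genes. MEF2D, a transcription factor that ERK5 activates, was at 4.89 and 4.73 TPM in shNT and at 12.4 and 15.8 TPM in shGLUD1 (1.37, limma adjusted p = 0.00023; rescaled 0.69), and the kinase gene MAP3K3 rose by 1.24 (rescaled 0.57). MAPK7, which encodes ERK5, and MAP2K5, which encodes MEK5, rose by 0.95 and 0.90 but not after rescaling (0.30 and 0.23).

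In the TGF-beta arm, which induces KLF10 and KLF11, 10 of 12 genes rose with none falling (83.3%), and rescaled 6 were higher with none lower (50%), with a list median of 1.08. TGFBR2, the ligand-binding receptor, was at 1.54 and 1.65 TPM in shNT and at 7.75 and 9.83 TPM in shGLUD1 (1.91, limma adjusted p = 7e-05; rescaled 1.32). SMAD4 and SMAD3, signal transducers of the pathway, rose by 1.88 and 1.61 (rescaled 1.27 and 0.96), and the ligand gene TGFB2 by 1.32 (rescaled 0.96) from under 0.5 TPM. Around KLF9, of 5 tested genes of the glucocorticoid receptor list 3 rose (60%) while 1 fell, and after rescaling 1 was higher (20%) and 2 lower, near the shares of all genes. PER1, a circadian repressor, rose from 1.94 and 3.09 TPM to 12.1 and 11.6 TPM (1.89, limma adjusted p = 7.3e-05; rescaled 1.26). The receptor gene NR3C1 and its target TSC22D3 rose by 0.73 and 0.70 (rescaled 0.18 and 0.01, not passing), and DUSP1, a phosphatase of MAP kinases, fell (-0.59, rescaled -1.34).

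Of 14 genes reported elsewhere as direct targets of KLF proteins, 8 were tested, 6 rose (75%) while 1 fell, and after rescaling 2 were higher (25%) and 2 lower. CCNB1 and CCND1, cyclins of the G2 to M and G1 steps, rose by 2.78 and 1.41 (rescaled 2.04 and 0.66). ENG, a TGF-beta coreceptor gene, rose by 1.06, PDGFA, a growth factor gene, by 0.94, CDKN1A by 0.90 and BIRC5 by 0.64. None of these passed after rescaling (0.36, 0.30, 0.14 and -0.12, in this order). PLAU did not pass on TPM (0.21) and was lower rescaled (-0.55). LGALS3, a galectin gene, was at 290.3 and 289 TPM in shNT and at 206 and 217 TPM in shGLUD1 and fell (-0.45, rescaled -1.21). CDKN1A, BIRC5, PLAU and LGALS3 are named after their values were seen. Reported directions of regulation were not set against these changes. Whether these genes responded to a KLF protein was not tested.

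**Figure D4:**
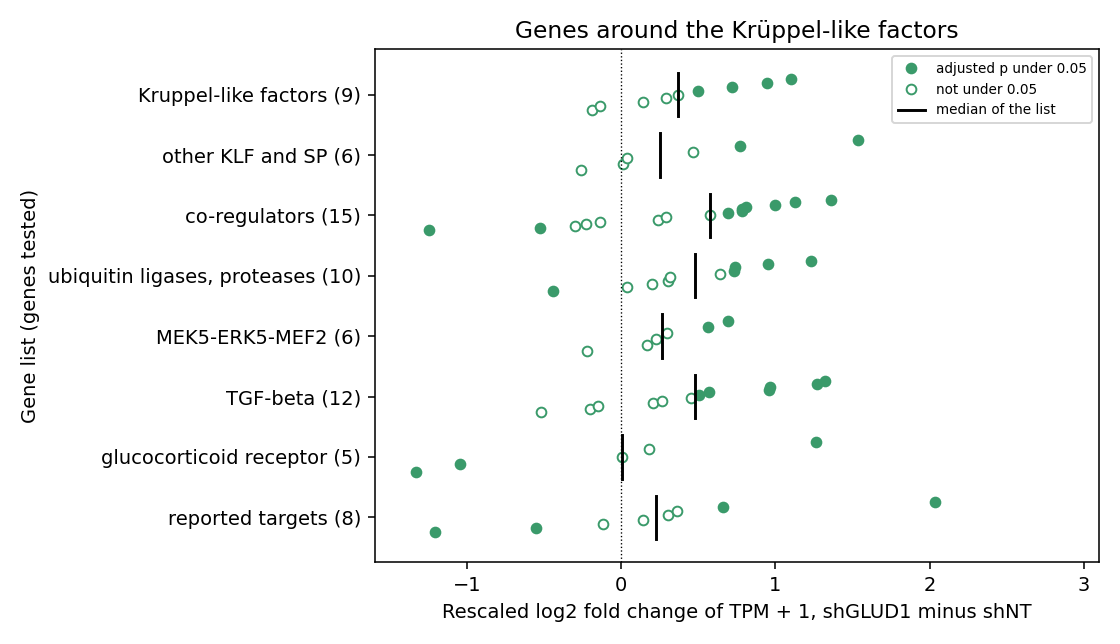
Rescaled log2 fold changes of TPM + 1 for each tested gene of the family and of 7 related lists, filled where the adjusted p was under 0.05, with the list median as a bar. Medians lie between 0.01 for the glucocorticoid receptor list and 0.58 for the co-regulators, and every list holds filled points above 0.

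KLF6, the member with the largest change in the main test, was compared with 6586 protein-coding genes of at least 5 TPM. The measure was the distance between centred log2 profiles over the 4 libraries. The 3 nearest were AP2B1, a subunit of the clathrin adaptor, EIF3A, a subunit of a translation initiation factor, and B4GALT5, a galactosyltransferase (distances 0.016, 0.03 and 0.031 log2 units). AP2B1, for example, was at 4.96 and 5.13 TPM in shNT and at 16.6 and 22.0 TPM in shGLUD1. With 4 libraries such likeness reflects the size of the group difference and the order of the replicates only.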

How the data were processed

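Per the labels' protocols, TruSeq V2 libraries were made from total RNA of 786-0 cells. The authors deposited one table of TPM per gene and library. Each column sums to 1000000, which sets the libraries to the same total but does not correct for differences in their composition. Bowtie 0.12.2 and builds mm8 and hg38 appear, without roles, in the submitters' processing notes. Quantifier, annotation and depth: not given in the sources used here. No counting interval can therefore be given, and TPM move together when abundant transcripts change.

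Genes averaging 1 TPM or more were analysed as log2(TPM + 1) with limma-trend 3.58.1 in R 4.3.3 (lmFit, eBayes), with group alone in the model, adjusted over all genes tested, two-sided at 0.05. Limma borrows the spread across genes (prior of 8.8 degrees of freedom). Coordinates and transcript length and GC content came from GENCODE 29 (GRCh38), matched by identifier (52338 of 57820), and promoter windows from RefSeq (GRCh38.p14). Tables and figures used Python 3.11.15, pandas 2.3.3, numpy 2.4.6 and matplotlib 3.10.9.

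All 10 members are named, with up to 4 genes of each related list (largest absolute log2 fold change, mean of at least 1 TPM). Further genes of the other KLF and SP, co-regulator and reported target lists are named outside this rule. The 3 nearest profiles are given for the member that rose most in the main test, and no member fell. Members and lists were chosen with earlier results of these data known. Alternatives were a pseudocount of 0.1 TPM, no filter, a minimum mean of 5 TPM, rescaling by median ratios, quantile normalization, no variance trend, a replicate block, and leaving out each library. Removal of length and GC trends (loess) and a fit on protein-coding genes only were chosen after seeing the data.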

Additional observations from a re-analysis of the deposited data

How the results depend on the processing

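KLF6 and KLF13 were called higher under every alternative run. With length and GC trends removed, KLF2 had a larger change than either, on TPM and rescaled. On TPM 7 members were called higher, and 4 after median-ratio rescaling, 3 under quantile normalization and 3 after rescaling with length and GC trends removed. No alternative called a member lower. With shNT replicate 1 left out, the share of tested members called higher was close to that of all genes, on TPM and rescaled. The excess of members over all genes was therefore not kept without that library. Leaving out each library gave 4 to 8 members called higher on TPM, with 4 without shNT replicate 1, and 2 to 4 rescaled, with 2 without shNT replicate 1, shGLUD1 replicate 1 or shGLUD1 replicate 2. Without shNT replicate 2 the rescaled KLF7 passed (0.81, adjusted p = 0.0447). Over all genes, 7105 were higher and 973 lower on TPM, 2910 and 3491 after median-ratio rescaling, 2938 and 2764 under quantile normalization, and 2952 and 2877 after rescaling with length and GC trends removed. With those trends removed on TPM 614 were lower, and at a mean of at least 5 TPM, where 7833 genes were tested, 4676 were higher. With each library left out, 5543 to 7103 genes were higher and 661 to 960 lower on TPM, and rescaled 1756, 2139, 2393 or 2466 higher and 2604, 3038, 3062 or 3190 lower.

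Directions turned for KLF3, KLF4, KLF5, KLF7 and KLF11. Values with a library left out are in the order shNT replicates 1 and 2, then shGLUD1 replicates 1 and 2. KLF4 was at -0.19 rescaled (-0.23, -0.19, -0.055 and -0.27 with each library left out), -0.21 under quantile normalization and -0.13 rescaled with length and GC trends removed. KLF5 was at -0.14 (-0.15, -0.17, 0.0096 and -0.24), -0.29 and -0.34, and KLF11 at -0.038 under quantile normalization and -0.11 with trends removed, in the same settings. KLF3 was at -0.0056 rescaled with trends removed, and KLF7 at -0.080 rescaled without shNT replicate 1. KLF4 and KLF7 also lost their TPM calls without a filter (limma adjusted p = 0.12 and 0.202) and without a variance trend (0.0609 and 0.0665). KLF7 lost its TPM call with length and GC trends removed (0.64, adjusted p = 0.0567). In that setting 6 of the 9 tested members were called higher, beside 7986 of 12524 genes. KLF10 lost its call under quantile normalization (0.37, adjusted p = 0.104). KLF11 passed without a variance trend (0.0249) and on protein-coding genes only (0.0319). The causes were not tested.

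The replicate numbers are shared between groups, but the differences between replicates 1 and 2 were almost unrelated across 12524 genes (Pearson r = 0.039), so the numbers were not taken to pair the libraries. With the replicate number as a block 8 members were called higher, KLF11 now among them (0.61, adjusted p = 0.0412). With the block and median-ratio rescaling 4 were, beside 3064 genes higher and 3601 lower in the whole table, and KLF4 and KLF5 were at -0.19 and -0.14. Depth per library is unknown, so for members under 2 TPM counting error could not be set beside the replicate spread.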
